A study of Mus musculus with 10 samples.

Results

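The 10 general macrophage identity genes are Csf1r, Adgre1, Cd68, Fcgr1, Mertk, C1qa, C1qb, C1qc, Cd14 and Lyz2. Macrophages are known for these genes, and the list was chosen by name with earlier results of these data known. All 10 were found among the 16290 genes of the deposited table and all 10 passed the filter on low values. RNA was sequenced from 10 libraries of mammary epithelial cells of FVB mice, which were released from the gland by enzyme digestion and concentrated in brief centrifugations. There were 2 libraries of the genotype NIC, 3 of NIC-Prmt1, 3 of NIC-Carm1 and 2 of NIC-Prmt6, and the study asked which genes change when a protein arginine methyltransferase is overexpressed. NIC is carried by all 10 libraries and is not spelled out in the labels, which also give no age, no promoter for the transgenes and no statement that replicates came from separate mice. The p-values therefore measure the spread between these libraries, which may be technical.

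Macrophages are leukocytes of the mononuclear phagocyte system that live in most tissues and take up dead cells, debris and microbes. In the mammary gland they lie around ducts and alveoli, and they are known for roles in duct growth and in clearing cells and milk when lactation ends. Their survival depends on signalling through the receptor CSF1R by its ligands CSF1 and IL34, and their lineage program rests on the transcription factor PU.1, encoded by Spi1. None of these genes is a defining marker of epithelium, although luminal progenitors of the mammary gland are also known to carry CD14. In bulk RNA, fewer cells of a type and less RNA per cell cannot be told apart.

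Between 21589274 and 30260921 reads per library could be recovered from the table. The label of epithelium was met in every library: Epcam, the epithelial adhesion molecule, lay between 17215 and 50031 normalised reads (read counts divided by a size factor per library). RNA of all 10 macrophage genes was found in every library too, and the lowest value of any of them was 51.7 normalised reads. The reads of both NIC-Prmt6 libraries, and those of NIC-Carm1 replicates 2 and 3, were almost the same: the chi-square of a pair per degree of freedom was 2.44 and 2.69, against 28 to 105 for the remaining pairs of 1 group. Since counting noise alone would give less, they stayed separate in the fit, and the counts of the 10 genes are given a second time with each such pair averaged. NIC-Carm1 then has 2 libraries and NIC-Prmt6 has a lone library that is assumed to vary like the other groups. Of the targeted genes, Prmt6 was higher in NIC-Prmt6 than in NIC (log2 fold change 1.09 ± 0.20, limma adjusted p = 0.00321). Carm1 was higher than in NIC in all 3 groups with a transgene, and Prmt1 was not shown to be higher in NIC-Prmt1 than in NIC (adjusted p = 0.784). Group names below therefore mean the libraries so labelled.

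RefSeq promoter sequences on GRCm38.p6 were at hand for 6 of the 10 genes, and 4 are shown. They are those of a pair of genes whose log2 ratio to Csf1r varied less over the libraries (C1qb and Cd68, SD 0.23 and 0.20). Beside them are those of a pair whose ratio varied more (Fcgr1 and Mertk, SD 0.44 and 0.54). Each is the 250 bases before the annotated start, written 5′ to 3′ on the strand of the gene, and capitals mark the core of the PU.1 site, GAGGAA or its reverse complement TTCCTC.
C1qb (chr4:136886201-136886450, minus strand): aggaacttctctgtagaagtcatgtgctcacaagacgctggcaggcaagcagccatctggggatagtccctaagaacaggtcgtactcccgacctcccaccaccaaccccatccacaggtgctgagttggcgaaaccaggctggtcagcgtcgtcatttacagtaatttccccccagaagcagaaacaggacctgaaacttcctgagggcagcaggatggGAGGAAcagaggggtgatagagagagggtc
Cd68 (chr11:69666171-69666420, minus strand): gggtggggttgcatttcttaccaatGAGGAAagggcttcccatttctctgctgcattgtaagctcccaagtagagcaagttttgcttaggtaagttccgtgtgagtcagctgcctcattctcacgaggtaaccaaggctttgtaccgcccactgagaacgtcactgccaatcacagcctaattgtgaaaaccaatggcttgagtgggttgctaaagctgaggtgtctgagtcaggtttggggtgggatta
Fcgr1 (chr3:96293970-96294219, minus strand): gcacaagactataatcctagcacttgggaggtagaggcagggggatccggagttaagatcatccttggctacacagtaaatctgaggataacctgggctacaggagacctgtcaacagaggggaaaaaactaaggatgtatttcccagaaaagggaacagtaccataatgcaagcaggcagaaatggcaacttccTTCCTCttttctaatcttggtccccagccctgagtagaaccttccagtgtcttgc
Mertk (chr2:128698665-128698914, plus strand): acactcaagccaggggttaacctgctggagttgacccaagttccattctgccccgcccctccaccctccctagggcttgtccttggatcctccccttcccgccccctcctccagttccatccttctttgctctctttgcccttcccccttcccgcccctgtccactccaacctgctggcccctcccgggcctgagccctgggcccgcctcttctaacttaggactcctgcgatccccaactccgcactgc
In the windows of 250 bases before to 50 bases after the start, GAGGAA stood on either strand in Cd68 (2 matches), Fcgr1 (1), C1qb (1) and C1qc (1), and these letters were not found in Lyz2 or Mertk. Of all 32851 promoters of that length, 28.3% held the motif. The AP-1 motif TGACTCA, which overlaps no GAGGAA match here, was found in Cd68 as its reverse complement TGAGTCA, 149 and 24 bases before the start, and in 5.2% of all promoters. The E-box CACGTG and the ETS core CCGGAA (reverse complement TTCCGG), found in 7.15% and 14.9% of all promoters, had no match in these 6 windows. The motif matches are letters in a window, with no binding data behind them.

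Per kilobase of merged exon, Cd14 had the highest level of the 10 genes in NIC, at 4193 ± 682 normalised reads per kilobase (SD, n = 2). Lyz2, encoding lysozyme, followed at 1682 ± 1303, a spread nearly as wide as its mean. C1qa was at 1402 ± 46.6, C1qb at 1070 ± 25.2, C1qc at 560 ± 19.8 and Cd68 at 526 ± 69.5 (SD, n = 2 each). Csf1r was at 267 ± 60.5, Mertk at 117 ± 22.1, Adgre1 at 104 ± 3.43 and Fcgr1 lowest, at 25.2 ± 6.24 (SD, n = 2 each). Cd14 and Lyz2 together held between 42.6% and 67.1% of the reads of the 10 genes in a library, so a sum over the list depends largely on these 2 genes. Fcgr1 was counted with 50 to 112 reads per library, so counting noise weighs most on this gene.

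**Figure D1:**
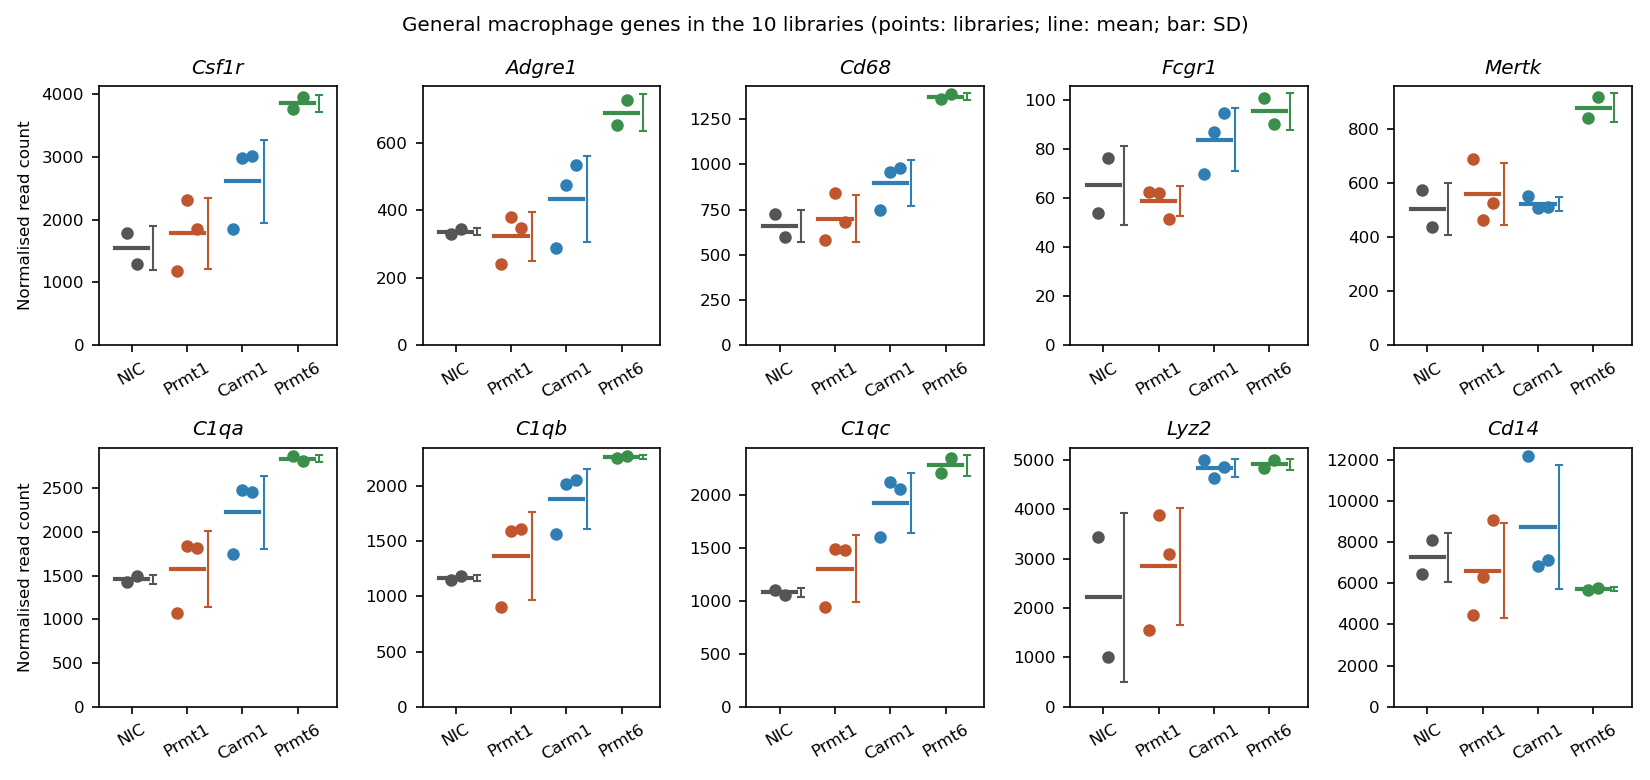
Normalised read count (vertical axes, from 0) of each of the 10 genes in the 4 groups. Points are libraries, lines are group means and bars are SD (n = 2 for NIC and NIC-Prmt6, n = 3 for NIC-Prmt1 and NIC-Carm1). In 8 of the 10 panels the highest point is a NIC-Prmt6 library, and in the panels of Cd14 and Lyz2 it is NIC-Carm1 replicate 1.

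Csf1r, which encodes the receptor for CSF1 and IL34 (chromosome 18, 61100598 to 61132149, plus strand, GRCm38, protein coding), was highest in NIC-Prmt6. It had 1788 and 1294 normalised reads in the NIC libraries, 1188, 2316 and 1844 in NIC-Prmt1, 1851, 2981 and 3007 in NIC-Carm1, and 3751 and 3944 in NIC-Prmt6. Both NIC-Prmt6 libraries lay above all 8 others, while NIC and NIC-Prmt1 overlapped. Csf1r rose by 1.34 ± 0.31 on the log2 scale in NIC-Prmt6 against NIC (adjusted p = 0.00868), which is 2.53-fold. The call ended without NIC replicate 2, without NIC-Prmt6 replicate 2 and with the pairs averaged (adjusted p up to 0.0714). Exons of Hmgxb3, on the opposite strand, share 873 bases (15.1%) of the Csf1r exons, and the strand setting of the counting is not given in the sources used here. Csf1r reads in that stretch are therefore uncertain. Hmgxb3 itself ranged from 1129 to 1746 normalised reads.

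Adgre1 encodes F4/80, the surface protein by which mouse macrophages are most often recognised (chromosome 17, 57358691 to 57483527, plus strand). Its NIC libraries had 329 and 345 normalised reads, the NIC-Prmt1 libraries 241, 379 and 348, the NIC-Carm1 libraries 289, 476 and 534, and the NIC-Prmt6 libraries 651 and 727. Here too NIC-Prmt6 lay above every other library, and the other 3 groups overlapped each other. The rise in NIC-Prmt6 against NIC was 1.03 ± 0.28 on the log2 scale (adjusted p = 0.0186), and it ended on averaging and on leaving out any NIC or NIC-Prmt6 library (adjusted p up to 0.106).

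Cd68, the gene of a glycoprotein of late endosomes and lysosomes (chromosome 11, 69664213 to 69666153, minus strand), was the 1 gene of the 10 whose call in NIC-Prmt6 against NIC held in all 21 alternatives. Normalised reads were 723 and 599 in NIC, 580, 840 and 682 in NIC-Prmt1, 748, 956 and 981 in NIC-Carm1, and 1360 and 1386 in NIC-Prmt6. NIC and NIC-Prmt1 overlapped, NIC-Carm1 lay just above both NIC libraries, and NIC-Prmt6 stood clear of all. Cd68 rose by 1.06 ± 0.19 on the log2 scale in NIC-Prmt6 against NIC (adjusted p = 0.00246, and up to 0.0401 over the alternatives). Its log2 fold change in NIC-Carm1 against NIC-Prmt6 was -0.63 ± 0.17 (adjusted p = 0.0167), a call that ended without either NIC-Prmt6 library (adjusted p up to 0.13).

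Fcgr1, the high-affinity receptor for IgG known as CD64 (chromosome 3, 96282909 to 96293969, minus strand), passed the test in none of the 6 comparisons. It had 53.9 and 76.7 normalised reads in NIC, 62.6, 62.1 and 51.7 in NIC-Prmt1, 69.8, 87.2 and 95.0 in NIC-Carm1, and 101 and 90.3 in NIC-Prmt6. The difference of NIC-Prmt6 from NIC was 0.57 ± 0.26 on the log2 scale (adjusted p = 0.115). The 2 groups did not overlap, but NIC-Prmt6 and NIC-Carm1 did.

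Mertk, a receptor kinase that binds dying cells through bridging proteins (chromosome 2, 128698956 to 128802894, plus strand), differed in NIC-Prmt6 from each other group. Its NIC libraries were at 574 and 438 normalised reads, the NIC-Prmt1 libraries at 690, 466 and 527, the NIC-Carm1 libraries at 552, 508 and 511, and the NIC-Prmt6 libraries at 843 and 919. Only NIC-Prmt6 stood apart, and NIC, NIC-Prmt1 and NIC-Carm1 covered the same range. The rise against NIC was 0.81 ± 0.19 on the log2 scale (adjusted p = 0.00848). The log2 fold change of NIC-Carm1 against NIC-Prmt6 was -0.75 ± 0.17 (adjusted p = 0.00764). Both calls ended without NIC-Prmt6 replicate 2 and on averaging (adjusted p = 0.0832 and 0.12), and the first also without NIC replicate 2.

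C1qa, C1qb and C1qc encode the 3 chains of C1q, which starts the classical complement pathway and which macrophages make in large part. The genes lie side by side on chromosome 4 on the minus strand, C1qb at 136880129 to 136886187, C1qc at 136889804 to 136893065 and C1qa at 136895917 to 136898803. C1qa had 1424 and 1493 normalised reads in NIC, 1071, 1838 and 1822 in NIC-Prmt1, 1745, 2476 and 2460 in NIC-Carm1, and 2865 and 2812 in NIC-Prmt6. C1qb had 1144 and 1183 in NIC, 906, 1591 and 1604 in NIC-Prmt1, 1566, 2014 and 2053 in NIC-Carm1, and 2249 and 2272 in NIC-Prmt6. C1qc had 1108 and 1054 in NIC, 944, 1493 and 1483 in NIC-Prmt1, 1606, 2125 and 2060 in NIC-Carm1, and 2213 and 2351 in NIC-Prmt6. For all 3 chains, every NIC-Carm1 library lay above both NIC libraries, every NIC-Prmt6 library lay above every NIC-Carm1 library, and NIC-Prmt1 replicate 1 was the lowest of the 10. The 3 chains rose in NIC-Prmt6 against NIC by 0.96 ± 0.25 (C1qa, adjusted p = 0.0143), 0.96 ± 0.25 (C1qb, adjusted p = 0.0134) and 1.08 ± 0.21 (C1qc, adjusted p = 0.0042) on the log2 scale. C1qa and C1qb lost the call on averaging and on leaving out any NIC or NIC-Prmt6 library (adjusted p up to 0.0971), and C1qc on averaging alone (adjusted p = 0.0504). In NIC-Carm1 against NIC, C1qc rose by 0.82 ± 0.19 (adjusted p = 0.0208). That call ended on averaging and without NIC replicate 1, NIC replicate 2, NIC-Carm1 replicate 2 or NIC-Carm1 replicate 3 (adjusted p up to 0.129).

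Lyz2 encodes lysozyme M, made by macrophages, monocytes and neutrophils (chromosome 10, 117277331 to 117282321, minus strand). It had 3425 and 1001 normalised reads in NIC, 1558, 3882 and 3099 in NIC-Prmt1, 5001, 4625 and 4860 in NIC-Carm1, and 4829 and 4984 in NIC-Prmt6. The NIC libraries were far apart, and NIC-Carm1 and NIC-Prmt6 lay at the same level above all NIC libraries. The log2 difference from NIC was 1.38 ± 0.46 in NIC-Carm1 (adjusted p = 0.0703) and 1.41 ± 0.51 in NIC-Prmt6 (adjusted p = 0.053), so neither passed. Without NIC replicate 1 both passed (adjusted p = 0.0209 and 0.00649), as they did without NIC-Prmt1 replicate 1. Lyz1 is a close copy of Lyz2, so reads of the 2 genes may have been split or dropped in the counting, and Lyz2 is uncertain as a single gene.

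Cd14, a co-receptor for bacterial lipopolysaccharide (chromosome 18, 36725067 to 36726798, minus strand), was the 1 gene of the 10 with its lowest group mean in NIC-Prmt6. Normalised reads were 6428 and 8099 in NIC, 4451, 6310 and 9048 in NIC-Prmt1, 12193, 6834 and 7132 in NIC-Carm1, and 5662 and 5776 in NIC-Prmt6. The NIC-Prmt6 libraries were below both NIC libraries and inside the range of NIC-Prmt1. The log2 difference of NIC-Prmt6 from NIC was -0.34 ± 0.33 (adjusted p = 0.454), and Cd14 passed the test in none of the 6 comparisons. NIC-Carm1 replicate 1, whose reads differed from those of the other 2 NIC-Carm1 libraries (chi-square per degree of freedom 93.1 and 105), held the highest value.

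Ordered by group mean, 8 of the 10 genes had NIC-Prmt6 first and NIC-Carm1 second. NIC-Prmt1 stood above NIC in 6 of these and below it in Adgre1 and Fcgr1, and the ranges of NIC and NIC-Prmt1 overlapped in all 8. NIC-Prmt6 and NIC-Carm1 overlapped in Fcgr1 and Lyz2. Mertk had NIC-Prmt1 second, and Cd14 had NIC-Carm1 first and NIC-Prmt6 last. Within NIC-Prmt1 the spread was wide: 7 of the 10 genes had their lowest value of all libraries in NIC-Prmt1 replicate 1, where Mertk in turn had its highest value outside NIC-Prmt6.

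**Figure D2:**
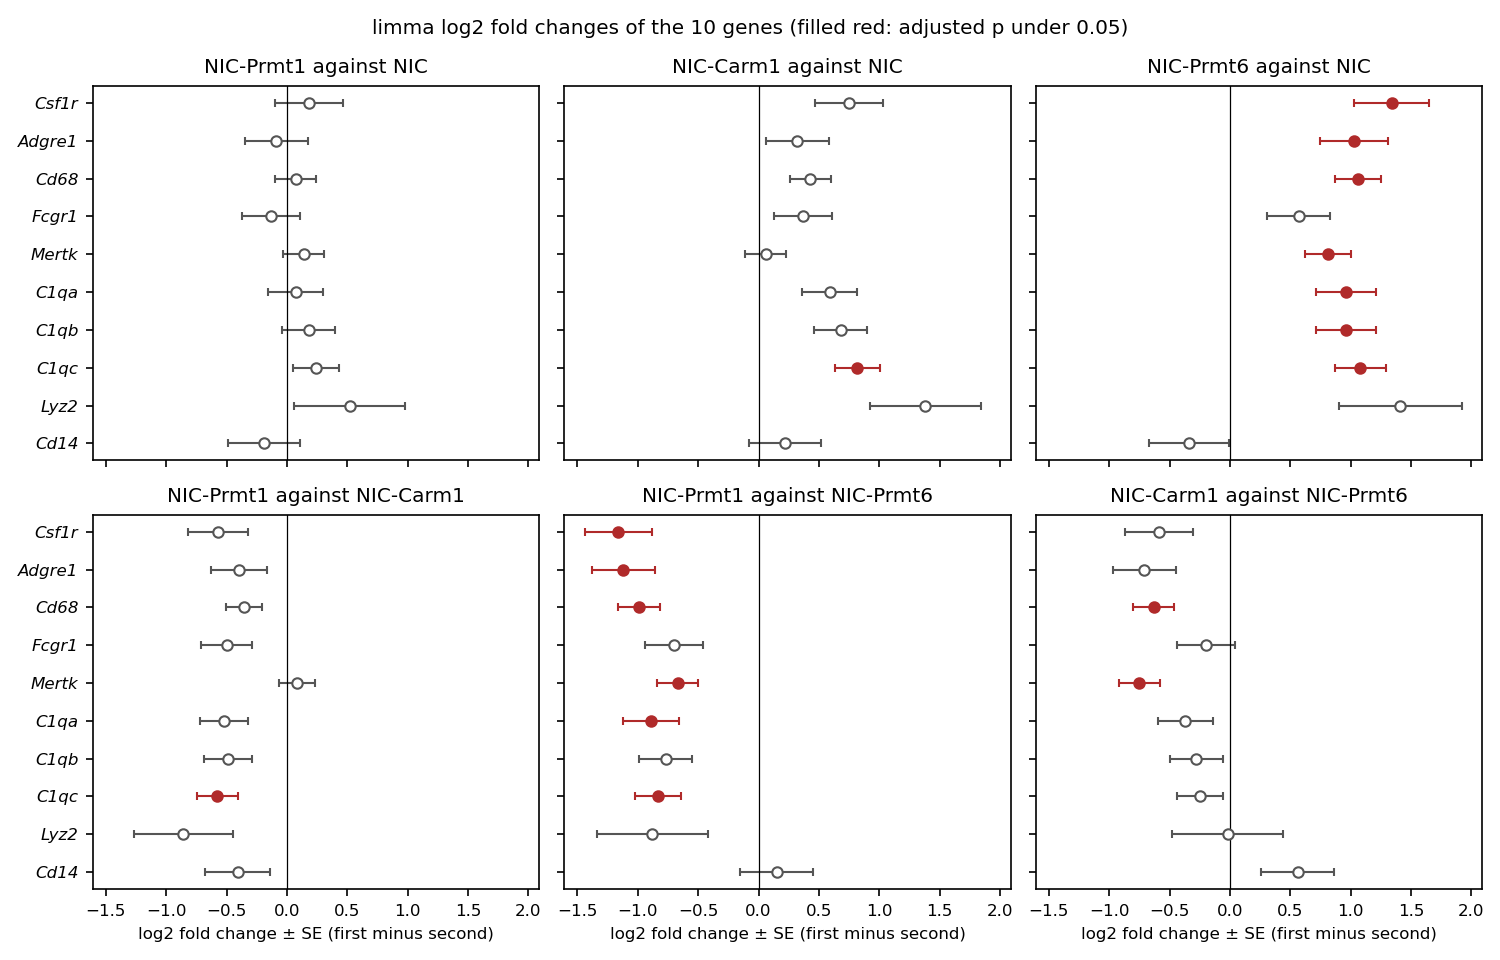
Log2 fold change (horizontal axes, first group minus second, bars are the limma standard error) of the 10 genes in the 6 comparisons between groups. Filled red points passed an adjusted p of 0.05: 7 genes in NIC-Prmt6 against NIC, 6 in NIC-Prmt1 against NIC-Prmt6 and at most 2 in any other panel.

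In NIC-Prmt6 against NIC, 7 of the 10 genes rose (Csf1r, Adgre1, Cd68, Mertk and the 3 C1q chains), where 19.0% of all 15694 genes tested were higher and 36.8% were changed in either direction. The median log2 fold change of the 10 genes was 0.99, against -0.011 for all genes tested. All 10 genes had groups that did not overlap, 9 of them higher and Cd14 lower in NIC-Prmt6, while 76.6% of all genes did not overlap in this comparison (38.1% higher, 38.6% lower). The count of 7 fell to 4 without NIC-Prmt6 replicate 1, to 2 (Cd68 and C1qc) without NIC-Prmt6 replicate 2 or without NIC replicate 2, and to 1 (Cd68) with the pairs averaged.

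In NIC-Carm1 against NIC, 1 of the 10 genes rose (C1qc), where 6.65% of all genes were higher and 16.0% changed. The median log2 fold change was 0.51, and all 10 estimates were above 0, from 0.06 for Mertk to 1.38 for Lyz2. Upper-quartile rescaling moved the split over all genes from 1044 higher and 1469 lower to 1312 higher and 1230 lower. In 6 of the 10 genes the groups did not overlap, each higher in NIC-Carm1, against 47.9% of all genes (23.4% higher). The count was 4 with DESeq2 (Csf1r and the 3 C1q chains) and 2 with these 2 groups fitted alone. It was 5 without NIC-Carm1 replicate 1 or without NIC-Prmt1 replicate 1, and 0 without NIC replicate 2, without NIC-Carm1 replicate 2, without NIC-Carm1 replicate 3 or on averaging.

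In NIC-Prmt1 against NIC, 0 of the 10 genes passed in limma, where 29.6% of all genes changed, 15.2% higher and 14.4% lower. At an unadjusted p of 0.05 the count was also 0, as it was with edgeR and with DESeq2. The median log2 fold change was 0.11 and the estimates ran from -0.19 (Cd14) to 0.52 (Lyz2). The groups overlapped in all 10 genes, while 55.3% of all genes did not overlap. C1qb and C1qc passed without NIC-Prmt1 replicate 1 (adjusted p = 0.0345 and 0.037), and Lyz2 without NIC replicate 1 (adjusted p = 0.0424).

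Between the groups with a transgene, NIC-Prmt1 was lower than NIC-Prmt6 in 6 of the 10 genes (Csf1r, Adgre1, Cd68, Mertk, C1qa and C1qc), where 4.94% of all genes were lower and 7.49% changed. The median log2 fold change was -0.86, with Csf1r at -1.16 ± 0.28 (adjusted p = 0.0374), Adgre1 at -1.12 ± 0.26 (adjusted p = 0.0312) and Cd68 at -0.99 ± 0.17 (adjusted p = 0.0103). In 9 of the 10 genes every NIC-Prmt1 library was below both NIC-Prmt6 libraries, against 49.2% of all genes not overlapping in either direction and 26.8% in this one. The count of 6 was 0 on averaging and without either NIC-Prmt6 library, 1 (Cd68) without NIC-Prmt1 replicate 3, 3 without NIC-Carm1 replicate 2 or 3, 3 with the 2 groups fitted alone and 2 under upper-quartile rescaling. That rescaling also moved the split over all genes, from 399 higher and 776 lower to 577 higher and 550 lower. All comparisons that involve NIC-Prmt6 share its 2 nearly identical libraries, so their values are set side by side and not as separate support.

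NIC-Carm1 was lower than NIC-Prmt6 in 2 of the 10 genes (Cd68 and Mertk), where 20.9% of all genes were lower and 39.2% changed. The median log2 fold change was -0.32. The groups did not overlap in 8 genes, 7 lower and Cd14 higher in NIC-Carm1, against 69.8% of all genes (35.2% lower, 34.6% higher). The count was 1 without NIC-Prmt6 replicate 1 and 0 without NIC-Prmt6 replicate 2 or on averaging. In NIC-Prmt1 against NIC-Carm1, 1 of the 10 genes was lower (C1qc, -0.58 ± 0.17, adjusted p = 0.0334), where 11.8% of all genes were lower and 26.8% changed. The median was -0.50, and 3 of the 10 genes did not overlap, each lower in NIC-Prmt1, against 43.0% of all genes (21.0% lower). That count was 5 without NIC-Carm1 replicate 1, 3 without NIC-Prmt1 replicate 2 and 0 without NIC-Prmt1 replicate 1, without NIC-Carm1 replicate 2 or 3, without either NIC-Prmt6 library, with the 2 groups alone or on averaging. It was 2 without either NIC library.

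The members did not all move as a unit. Within a library the ratio of C1qa to C1qb varied over the 10 libraries with an SD of only 0.07 on the log2 scale, and that of C1qc to C1qb with 0.08, while C1qb itself varied with an SD of 0.45. Relative to Csf1r, the SD of the log2 ratio was 0.20 for C1qa, C1qc and Cd68, 0.22 for Adgre1 and 0.23 for C1qb. It was wider for Fcgr1 (0.44), Lyz2 (0.47) and Mertk (0.54), and widest for Cd14 (0.77). The log2 ratio of Cd14 to Csf1r fell from a mean of 2.25 in NIC to 1.88 in NIC-Prmt1, 1.72 in NIC-Carm1 and 0.57 in NIC-Prmt6, as a description without a test. The mean ratios of C1qa, C1qb and C1qc to Csf1r were -0.44, -0.77 and -0.75 in NIC-Prmt6. In the other groups they ran from -0.21 to -0.06, from -0.45 to -0.38 and from -0.49 to -0.41. The Mertk ratio was highest in NIC-Prmt1 replicate 1, at -0.78, where the other libraries ran from -2.55 to -1.56. The Lyz2 ratio ran from -0.37 in NIC replicate 2 to 1.43 in NIC-Carm1 replicate 1. These ratios are descriptions of 10 libraries with no p-value.

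**Figure D3:**
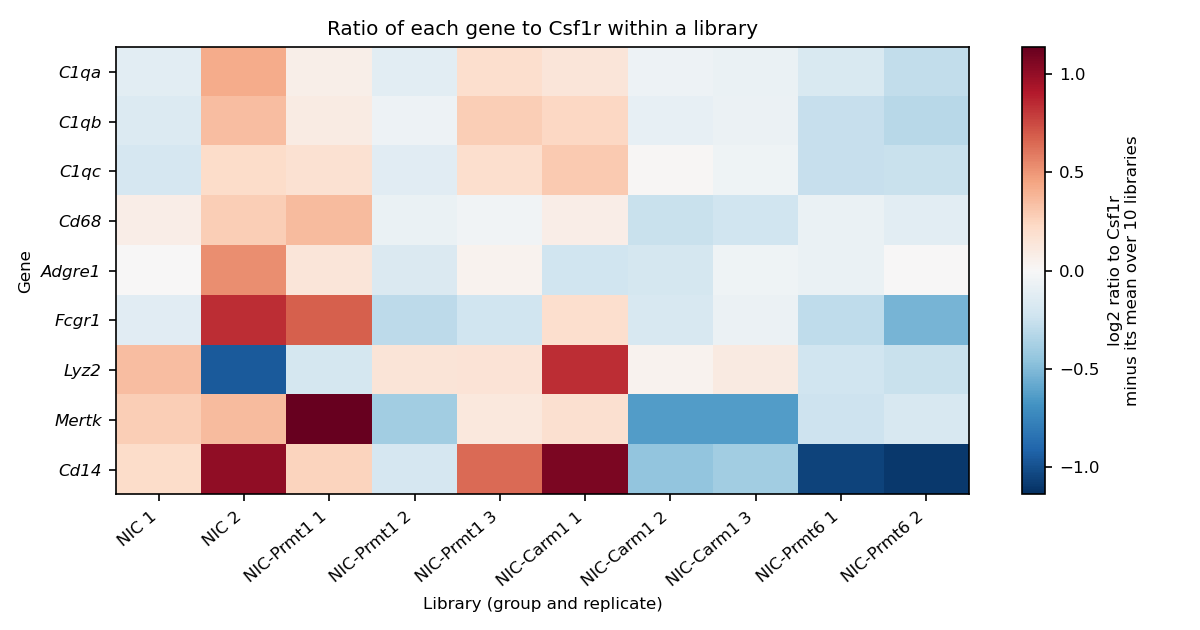
Log2 ratio of each gene to Csf1r within a library, minus the mean of that ratio over the 10 libraries (colour; red above the mean, blue below), for 9 genes in rows and 10 libraries in columns. The rows of the C1q chains, Cd68 and Adgre1 are pale, and the row of Cd14 runs from red in NIC replicate 2 and NIC-Carm1 replicate 1 to blue in NIC-Prmt6.

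By the rule used to find the genes most like each member (the smallest SD of the log2 ratio over the 10 libraries, among genes at least as variable and with a mean of at least 100), other leukocyte genes stood next to most members. The nearest to Csf1r was Cd84, a receptor of leukocytes (SD of the ratio 0.16), and the nearest to each C1q chain was Fcer1g, the shared signalling chain of Fc receptors (0.18 for C1qa, 0.17 for C1qb and 0.14 for C1qc). P2ry6 was nearest to Cd68 (0.14) and Lilrb4a, an inhibitory receptor of myeloid cells, to Adgre1 (0.19). Lyz1, the close copy, was nearest to Lyz2 (0.25). For Cd14 the nearest were Traf4 (0.20), Slc35c2 (0.22) and Gmppb (0.22), and for Mertk they were Cachd1 (0.11), Dock4 (0.12) and Bcorl1 (0.12), none of which is a macrophage marker. Fcgr1 had Mcf2l (0.16), Rab40b (0.16) and the cholesterol transporter Abca1 (0.18).

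The partners of the members were followed through gene lists of their pathways. Of the ligands of CSF1R, Csf1 rose in NIC-Prmt6 against NIC by 0.84 ± 0.13 on the log2 scale (adjusted p = 0.00143) and fell in NIC-Carm1 (-0.63 ± 0.12, adjusted p = 0.0091), while NIC-Prmt1 did not pass (-0.24 ± 0.12, adjusted p = 0.154). Both NIC-Prmt6 libraries, at 5786 and 5693 normalised reads, were above the NIC libraries at 2741 and 3761, and all NIC-Carm1 libraries were below, at 2158, 2063 and 2004. Il34 rose in NIC-Prmt1 (1.06 ± 0.17, adjusted p = 0.00283) and in NIC-Prmt6 (0.99 ± 0.19, adjusted p = 0.00371), and did not pass in NIC-Carm1 (adjusted p = 0.588). On averaging, the fall of Csf1 in NIC-Carm1 (adjusted p = 0.0835) and the rise of Il34 in NIC-Prmt6 (adjusted p = 0.0526) ended. Spi1 had 272 and 212 normalised reads in NIC and 355 and 356 in NIC-Prmt6, and its difference of 0.56 ± 0.25 did not pass (adjusted p = 0.0987). Among all 10 growth factors, receptors and lineage transcription factors listed, 4 rose and 1 fell in NIC-Prmt6 against NIC, 3 rose and 1 fell in NIC-Prmt1, and 3 fell in NIC-Carm1. With the pairs averaged, 3 rose and 1 fell in NIC-Prmt6 and in NIC-Prmt1, and none of the 10 passed in NIC-Carm1. Cebpb fell in all 3, with -0.97 ± 0.13 in NIC-Prmt6 (adjusted p = 0.000715), and the call in NIC-Carm1 ended on averaging (adjusted p = 0.0564).

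C1q acts with the proteases C1r and C1s, which the inhibitor encoded by Serping1 holds in check. In NIC-Prmt6 against NIC, 7 of the 9 listed complement partners rose, with a median log2 fold change of 1.48, and the smallest adjusted p were those of C1s1 (1.76 ± 0.14, adjusted p = 7.44e-05), C1ra (1.54 ± 0.15, adjusted p = 0.00013) and Serping1 (1.88 ± 0.18, adjusted p = 0.000141). In NIC-Prmt1, 3 of 9 rose, and in NIC-Carm1 only C3 did (0.68 ± 0.19, adjusted p = 0.0345). On averaging, the counts were 5, 2 and 0. The call of C3 in NIC-Carm1 ended without either NIC library, without NIC-Carm1 replicate 2 or 3 and without either NIC-Prmt6 library (adjusted p up to 0.204). C1r, C1s and C1 inhibitor are made by fibroblasts as well as by macrophages. The 7 fibroblast genes all rose in NIC-Prmt6, as given below, and their part in the complement result was not tested.

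Among 7 Fc receptors, adaptors and kinases next to Fcgr1, 3 rose in NIC-Prmt6 against NIC: the inhibitory receptor Fcgr2b (2.01 ± 0.33, adjusted p = 0.00171), Fcgr3 (1.79 ± 0.26, adjusted p = 0.00097) and Fcer1g (1.17 ± 0.32, adjusted p = 0.0176). Fcgr2b, Fcgr3 and Lyn rose in NIC-Prmt1 while 1 gene of the list fell, and Fcgr3 alone rose in NIC-Carm1 (0.95 ± 0.24, adjusted p = 0.0252). With the pairs averaged, 2, 1 and 0 genes rose. Fcer1g in NIC-Prmt6 no longer passed without NIC replicate 2 or either NIC-Prmt6 library (adjusted p up to 0.119), and Fcgr3 in NIC-Carm1 without either NIC library or NIC-Carm1 replicate 2 or 3 (adjusted p up to 0.142). In NIC-Prmt1, Fcgr2b ended without NIC replicate 2 (adjusted p = 0.109), and Fcgr3 and Lyn ended without either NIC library or NIC-Prmt1 replicate 3.

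Of the partners of Cd14 in sensing lipopolysaccharide, 4 of 8 rose and 3 fell in NIC-Prmt6 against NIC. Tlr4, the signalling receptor, rose by 0.52 ± 0.18 (adjusted p = 0.0445), and Myd88, its adaptor, by 0.75 ± 0.13 (adjusted p = 0.00193). The call of Tlr4 ended in edgeR, on averaging and on leaving out any of 7 libraries, both of NIC-Prmt6 among them (adjusted p up to 0.266). Tlr2, the receptor for bacterial lipoproteins, fell in NIC-Prmt1, NIC-Carm1 and NIC-Prmt6, with log2 fold changes of -1.90 ± 0.25, -1.57 ± 0.25 and -1.41 ± 0.28 (adjusted p = 0.00122, 0.00446 and 0.00406). In NIC-Prmt1, 2 rose and 3 fell, and in NIC-Carm1 1 rose and 2 fell. With the pairs averaged, 1 rose and 1 fell in NIC-Prmt6, 2 rose and 3 fell in NIC-Prmt1, and in NIC-Carm1 0 rose and 1 fell.

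Mertk is 1 of 3 related kinases, with Axl and Tyro3, and Gas6 and protein S (Pros1) are the bridging ligands of the family as a whole. Of the 9 genes of this family and of apoptotic cell uptake, 5 rose and 2 fell in NIC-Prmt6 against NIC. Axl rose by 1.43 ± 0.16 (adjusted p = 0.000316), Pros1 by 0.70 ± 0.14 (adjusted p = 0.00481), Gas6 by 0.74 ± 0.21 (adjusted p = 0.0203), and the scavenger receptor gene Stab1 by 2.05 ± 0.14 (adjusted p = 5.38e-05). Axl and Gas6 also rose in NIC-Prmt1 (0.72 ± 0.15 and 0.82 ± 0.19, adjusted p = 0.00743 and 0.0118), where 4 rose and 3 fell. In NIC-Carm1 only Stab1 rose (1.03 ± 0.13, adjusted p = 0.00176), and Axl (0.09 ± 0.15) and Gas6 (-0.09 ± 0.19) did not pass. On averaging, 2, 3 and 1 genes rose and 0, 1 and 0 fell, and the rises of Gas6 and Pros1 in NIC-Prmt6 ended (adjusted p = 0.118 and 0.0619). The rise of Gas6 in NIC-Prmt6 also ended without NIC replicate 1 or either NIC-Prmt6 library, and that in NIC-Prmt1 without NIC replicate 1 (adjusted p = 0.084).

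Lysosomal genes of phagocytes form the setting in which CD68 works. Of 10, Gpnmb alone rose in NIC-Prmt6 against NIC (1.53 ± 0.34, adjusted p = 0.00731) and 2 fell, Ctsd among them, while 1 fell in NIC-Prmt1 (Ctss, -1.11 ± 0.29, adjusted p = 0.0188). In NIC-Carm1, 0 of 10 passed in limma, where 1 was higher and 1 lower at an unadjusted p of 0.05 and in DESeq2, and 0 passed in edgeR. The call of Gpnmb ended on averaging and without NIC replicate 1 or NIC-Prmt6 replicate 2 (adjusted p up to 0.0672), that of Ctss without either NIC library (adjusted p up to 0.0951), and that of Ctsd on leaving out any 1 of the NIC or NIC-Prmt6 libraries. With the pairs averaged, 0 of 10 passed in NIC-Prmt6. The median log2 fold change of the 10 was -0.10 in NIC-Prmt6, -0.17 in NIC-Prmt1 and -0.19 in NIC-Carm1.

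Genes of tissue-resident and alternatively activated macrophages had larger median changes than the general ones. In each of the 3 comparisons with NIC, 10 of the 11 tested rose and Arg1 fell, with medians of 5.30 in NIC-Prmt6, 3.99 in NIC-Prmt1 and 4.05 in NIC-Carm1, beside 0.99, 0.11 and 0.51 for the 10 general genes. Mrc1, the mannose receptor, had 247 and 63.7 normalised reads in NIC, 663, 1241 and 799 in NIC-Prmt1, 567, 1613 and 1594 in NIC-Carm1, and 3011 and 2988 in NIC-Prmt6. Cd163, the haemoglobin scavenger receptor, had 21.7 and 9.1 in NIC, 211, 371 and 307 in NIC-Prmt1, 108, 516 and 516 in NIC-Carm1, and 950 and 1019 in NIC-Prmt6. For both genes every library with a transgene lay above both NIC libraries, unlike any of the 10 general genes, of which none had all NIC-Prmt1 libraries above NIC. The rises of Mrc1 were 2.78 ± 0.57, 3.16 ± 0.57 and 4.57 ± 0.62 in NIC-Prmt1, NIC-Carm1 and NIC-Prmt6 (adjusted p = 0.00685, 0.0069 and 0.000701), and the first of these ended without NIC replicate 2 (adjusted p = 0.0588). With the pairs averaged, 10, 6 and 10 genes of the list rose in the same order of groups, and Mrc1 no longer passed in NIC-Carm1 (adjusted p = 0.0631). The difference between the lists was not tested.

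Pan-leukocyte genes give the background of all white blood cells. In NIC-Prmt6 against NIC, 2 of 8 rose (Fcer1g, also counted with the Fc receptors, and Itgb2, the latter by 0.97 ± 0.31, adjusted p = 0.0338), and both calls ended on averaging, without NIC replicate 2 and without either NIC-Prmt6 library. Ptprc, encoding CD45, had 1193 and 473 normalised reads in NIC, 438, 1011 and 462 in NIC-Prmt1, 621, 1022 and 1026 in NIC-Carm1, and 899 and 895 in NIC-Prmt6. The NIC libraries were far apart, 1 of them the highest of all 10, and they enclosed both NIC-Prmt6 libraries. The difference of NIC-Prmt6 from NIC was 0.26 ± 0.47 (adjusted p = 0.703). In NIC-Prmt1 and NIC-Carm1, 0 of 8 passed in limma, with 0 and 1 at an unadjusted p of 0.05, 0 and 0 in edgeR, and 0 and 1 in DESeq2. Relative to the mean of the pan-leukocyte genes, 4 of the 10 members lay higher in both NIC-Prmt6 libraries than in either NIC library. They were Csf1r, Cd68, C1qc and Lyz2, while Cd14 lay lower and the other 5 overlapped. On the normalised values 38.1% of all genes were higher without overlap and 38.6% lower, and the share on this ratio was not counted. On the log2 ratio to the pan-leukocyte mean, Csf1r was at 1.51 and 2.11 in the NIC libraries and 2.66 and 2.72 in NIC-Prmt6, and Cd68 was at 0.21 and 1.0 against 1.20 and 1.21. C1qa, which overlapped, was at 1.19 and 2.32 against 2.27 and 2.23, and Adgre1 at -0.93 and 0.21 against 0.14 and 0.28.

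Markers of other cell types differed between the groups as well. In NIC-Prmt6 against NIC, 7 of 7 fibroblast genes and 7 of 7 endothelial genes rose, with medians of 1.60 and 1.36, and 6 of 10 luminal epithelial genes fell, Epcam among them (-1.44 ± 0.18, adjusted p = 0.00045). Summed as CPM, the recovered reads scaled to the same total in each library, fibroblast genes ran from 2258 to 2658 in NIC and from 8561 to 8598 in NIC-Prmt6, endothelial genes from 1075 to 1306 and from 2825 to 2833, and luminal genes from 9412 to 11313 and from 6093 to 6127. The 10 macrophage genes summed to 555 and 615 CPM in NIC and to 948 and 971 CPM in NIC-Prmt6. No fibroblast, endothelial or luminal gene of the lists was at 0 in any library, and the part of these cell types in the differences of the macrophage genes was not tested. In NIC-Prmt1, 4 of 7 fibroblast and 7 of 7 endothelial genes rose against NIC while no macrophage gene of the 10 passed. In NIC-Carm1 the 10 macrophage genes summed to 960 to 998 CPM, and the fibroblast genes to 2302 to 2555 CPM, inside the range of NIC. Cd14 and Lyz2 held 42.6% to 67.1% of the reads of the 10 genes, so these sums depend largely on those 2 genes. Gene by gene, 7 of the 10 lay lower in NIC-Carm1 than in NIC-Prmt6 without overlap, and Cd14 lay higher. Of all genes, 35.2% were lower without overlap and 34.6% higher. With the pairs averaged, 7 fibroblast and 5 endothelial genes rose and 2 luminal genes fell in NIC-Prmt6.

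**Figure D4:**
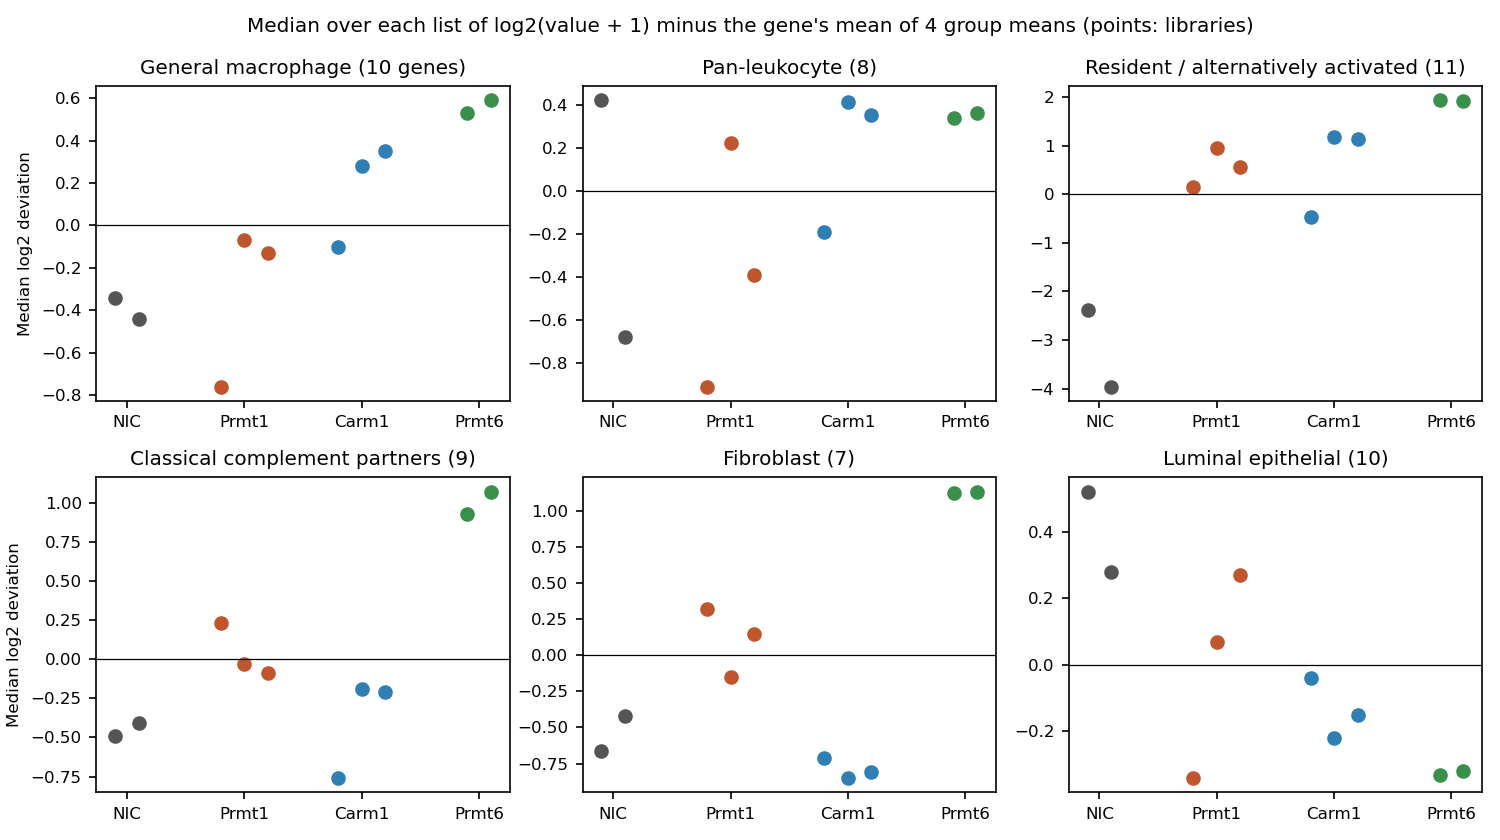
Median over a gene list of log2(value + 1) minus the mean of the 4 group means of each gene (vertical axes, log2 units; they differ between panels), for 6 lists. Points are libraries. The general macrophage genes run from -0.76 in NIC-Prmt1 replicate 1 to 0.59 in NIC-Prmt6 replicate 2, and the NIC libraries of the pan-leukocyte list lie at 0.42 and -0.68.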

How the data were processed

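RNA was extracted with Trizol, and polyadenylated RNA was made into TruSeq libraries, per the labels' protocols. TopHat2 2.0.10, HTSeq 0.6.0, DESeq 1.18.0 and the build mm10 are named in the submitters' processing notes. Annotation, strand setting and filter were not given in the sources used here. The deposited signal is a read count per gene that the authors divided by 1 size factor per library. Dividing by the step of each column gave whole reads for 100% of values (tolerance 0.01), between 21589274 and 30260921 per library, so the precision of low genes is limited by counting. The main test was limma-trend (limma 3.58.1, R 4.3.3) on log2(value + 1), over the 15694 genes that reached a value of 10 in 2 or more libraries, with all 4 groups in 1 fit and 6 residual degrees of freedom. P-values were Benjamini-Hochberg adjusted over all genes tested, and the threshold was 0.05. Fold changes on this scale understate the change of low genes. On the recovered reads, edgeR 4.0.16 called 4538, 2456 and 5778 genes in NIC-Prmt1, NIC-Carm1 and NIC-Prmt6 against NIC, and DESeq2 1.42.0 called 5256, 3216 and 6210. The limma fit was also run on simulated counts with the same dispersion for every gene and independent libraries. These hold no nearly identical pairs, so no conclusion is drawn from that run.

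The 10 genes and 22 other lists (5 of whose genes are not in the table) were chosen with earlier results of these data known. By rule, the 10 genes, up to 3 genes per list with the smallest adjusted p below the threshold in a comparison, 12 further genes and the 3 genes most like each member could be named. The targeted genes, overlapping or copied genes and markers at 0 are named as checks, and Il12b and Nos2 are given in all comparisons with NIC that they passed, chosen after their values were seen. Levels were summed per list as CPM of the recovered reads. The 21 alternatives were 2 rescalings, the 2 count tests, the 2 groups alone, a replicate block, 2 pseudocounts, 2 filters, averaging of the nearly identical libraries, and leaving out each library. Exon lengths and positions came from GENCODE M21 (GRCm38) and promoters from RefSeq (GRCm38.p6). Reads were not used here.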

Additional observations from a re-analysis of the deposited data

How the results depend on the processing

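Over the 60 values of the 10 genes in the 6 comparisons, 17 passed, and none of these changed sign under the 21 alternatives, while values that did not pass changed sign 20 times in 1260. Rescaling shifted the median of all genes by less than 0.1 on the log2 scale. Averaging the nearly identical libraries left 0, 0 and 1 of the 10 genes in NIC-Prmt1, NIC-Carm1 and NIC-Prmt6 against NIC, and 0 in each comparison between transgenic groups. It left 2601, 340, 1664, 1355, 21 and 1262 genes of all tested, from 4645, 2513, 5778, 4199, 1175 and 6157, in the order NIC-Prmt1, NIC-Carm1 and NIC-Prmt6 against NIC, NIC-Prmt1 against NIC-Carm1, NIC-Prmt1 against NIC-Prmt6 and NIC-Carm1 against NIC-Prmt6. That alternative has fewer libraries. Leaving out 1 library gave, in the same order, 2277 to 5642, 709 to 3380, 2661 to 6633, 2626 to 4694, 47 to 2237 and 2575 to 6784 genes, and 0 to 2, 0 to 5, 2 to 8, 0 to 5, 0 to 7 and 0 to 3 of the 10.

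With the 2 groups alone, 2775 genes passed in NIC-Prmt1 and 1441 in NIC-Carm1 against NIC, and 2, 0 and 3 of the 10 in NIC-Carm1 against NIC, NIC-Prmt1 against NIC-Carm1 and NIC-Prmt1 against NIC-Prmt6. DESeq2 called 2119 genes in NIC-Prmt1 against NIC-Prmt6 and 4 of the 10 in NIC-Carm1 against NIC. Upper-quartile rescaling left 2 of the 10 in NIC-Prmt1 against NIC-Prmt6. The cause of these shifts was not tested. Pairing by replicate number was not seen: deviations from the group means correlated between -0.132 and 0.1 over 13 same-numbered pairs. In a group of 2 libraries the deviations mirror each other, so these pairs are not separate and the check is weak. With the number as a replicate block, 3742, 1667, 5409, 3691, 571 and 5086 genes passed in the order above, and 0, 1, 7, 2, 5 and 3 of the 10. Other pseudocounts changed the SD of a ratio by at most 0.01. Fcgr1, with 50 to 112 reads, is the gene whose depth limits the comparison most.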

Other observations

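Mast cell genes rose in all 3 groups with a transgene, as the resident macrophage genes did. Of 7, 6 rose in NIC-Prmt1, 5 in NIC-Carm1 and 6 in NIC-Prmt6 against NIC, with medians of 3.09, 2.83 and 4.17 on the log2 scale, and 5, 2 and 5 rose with the nearly identical libraries averaged. Mcpt4, a mast cell chymase, had 41.6 and 70.2 normalised reads in NIC, 377, 908 and 936 in NIC-Prmt1, 276, 704 and 770 in NIC-Carm1, and 1388 and 1385 in NIC-Prmt6. Every library with a transgene was above both NIC libraries. The rises of Mcpt4 were 3.64 ± 0.49, 3.27 ± 0.49 and 4.66 ± 0.53 (limma adjusted p = 0.00124, 0.00319 and 0.000309), and they passed in all 21 alternatives. Cpa3, encoding a mast cell carboxypeptidase, rose by 2.95 ± 0.45, 2.83 ± 0.45 and 4.17 ± 0.50 and also passed in each. The mast cell markers Fcer1a and Ms4a2 were at 0 in at least 1 library. The list holds Kit, which luminal progenitors also express and which the luminal list holds too.

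Genes of classically activated macrophages split. In NIC-Prmt1, NIC-Carm1 and NIC-Prmt6 against NIC, 2, 0 and 2 of 9 rose and 4, 3 and 2 fell. Il12b, a subunit of interleukin 12, had 429 and 525 normalised reads in NIC, between 9.3 and 20.7 in NIC-Prmt1, between 9.01 and 75.6 in NIC-Carm1, and 71.4 and 96.9 in NIC-Prmt6. All libraries with a transgene were below both NIC libraries. Il12b fell in NIC-Prmt1 (-5.16 ± 0.74, adjusted p = 0.00159) and in NIC-Carm1 (-3.71 ± 0.74, adjusted p = 0.0109), the latter not without either NIC library (adjusted p up to 0.0656). It also fell in NIC-Prmt6 (-2.50 ± 0.81, adjusted p = 0.0358), a call that ended on averaging and without either NIC library, either NIC-Prmt6 library or NIC-Prmt1 replicate 3 (adjusted p up to 0.157). Tnf fell in all 3, with -1.17 ± 0.25, -1.29 ± 0.25 and -0.98 ± 0.27 (adjusted p = 0.00753, 0.00874 and 0.0176). The call of Tnf ended without NIC replicate 2 in NIC-Prmt1 (adjusted p = 0.0583), on averaging in NIC-Carm1 (adjusted p = 0.071), and on averaging or without NIC replicate 2 or either NIC-Prmt6 library in NIC-Prmt6 (adjusted p up to 0.132). Il6 rose in NIC-Prmt1 by 0.78 ± 0.11 and in NIC-Prmt6 by 1.30 ± 0.12 (adjusted p = 0.00148 and 0.000117). Nos2, encoding inducible nitric oxide synthase, rose in NIC-Prmt6 by 2.24 ± 0.40 (adjusted p = 0.00259) and in NIC-Prmt1 by 1.48 ± 0.37 (adjusted p = 0.0152), the latter not without NIC replicate 1 (adjusted p up to 0.112). On averaging, 2, 0 and 2 genes of the list rose and 3, 1 and 0 fell. These genes are made by other cells as well as by macrophages.

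Of 7 monocyte genes, 1, 1 and 3 rose and 0 fell in the same order of groups. Itgam, encoding CD11b, was the gene that rose in all 3. It rose in NIC-Prmt6 by 2.24 ± 0.37 (adjusted p = 0.00171) and passed there in all 21 alternatives, while its rises in NIC-Prmt1 and NIC-Carm1 (1.14 ± 0.34 and 1.48 ± 0.34, adjusted p = 0.0292 and 0.0181) ended on averaging, without NIC replicate 2 and without replicates 2 or 3 of their own group (adjusted p up to 0.246 and 0.121). Ccr2 (2.58 ± 0.67, adjusted p = 0.0143) ended without NIC replicate 2 or either NIC-Prmt6 library, and Vcan (1.40 ± 0.32, adjusted p = 0.00827) without NIC replicate 1 or NIC-Prmt6 replicate 1. Of 9 dendritic cell genes, 3, 2 and 4 rose and 1, 0 and 0 fell. Cd209a had 10.4 and 3.9 normalised reads in NIC and 157 and 156 in NIC-Prmt6, a rise of 4.39 ± 0.63 (adjusted p = 0.000862). Zbtb46, a transcription factor of classical dendritic cells and of endothelium, rose there by 1.50 ± 0.17 (adjusted p = 0.00029) and in NIC-Prmt1 by 0.76 ± 0.15 (adjusted p = 0.00665). Cd209a also rose in NIC-Prmt1 and NIC-Carm1 (2.68 ± 0.57 and 2.55 ± 0.57, adjusted p = 0.00814 and 0.0169), and neither call held without NIC replicate 2 (adjusted p up to 0.0723 and 0.12). Itgax, encoding CD11c, fell in NIC-Prmt1 (-0.95 ± 0.14, adjusted p = 0.002). On averaging, 0, 0 and 1 monocyte genes and 2, 0 and 2 dendritic cell genes rose.

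Of 7 MHC class II genes, 0 rose, and H2-DMb1 fell in NIC-Prmt1 and NIC-Prmt6 (-0.69 ± 0.23 and -1.15 ± 0.25, adjusted p = 0.0465 and 0.00672). The first of these calls ended in edgeR, the second on averaging (adjusted p = 0.067), and the first also on leaving out any of 8 libraries, both of NIC among them (adjusted p up to 0.153). In NIC-Carm1 0 of 7 passed in limma, edgeR or DESeq2 and 0 at an unadjusted p of 0.05. Of 6 neutrophil genes, 0 passed in NIC-Prmt1 and NIC-Carm1 in limma, in edgeR, in DESeq2 and at an unadjusted p of 0.05. In NIC-Prmt6 only Retnlg rose (2.24 ± 0.67, adjusted p = 0.026), a call that ended without any 1 of the NIC or NIC-Prmt6 libraries (adjusted p up to 0.14). S100a8, an abundant neutrophil transcript, lay between 5.17 and 45.1 normalised reads, and S100a9 was at 0 in NIC replicate 2.

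Of 5 B cell genes, 0 passed in limma and edgeR and 0 at an unadjusted p of 0.05 in any comparison with NIC, while DESeq2 called 1 lower in NIC-Prmt6. Summed, they were highest in NIC replicate 1 (32.5 CPM) and NIC-Prmt1 replicate 2 (39.5 CPM), with 3.43 to 16.7 CPM elsewhere. Of 9 T and NK cell genes, Ncr1 alone rose, in NIC-Prmt1 (0.97 ± 0.33, adjusted p = 0.0484) and NIC-Prmt6 (1.40 ± 0.36, adjusted p = 0.0133), and both calls ended on averaging and on leaving out NIC replicate 1. The call in NIC-Prmt1 also ended in edgeR and in DESeq2. In NIC-Carm1 0 of 9 passed in limma, edgeR and DESeq2, with 1 at an unadjusted p of 0.05.

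Among non-leukocyte lists, 7 of 8 basal epithelial genes rose in NIC-Prmt1, led by Acta2 (1.82 ± 0.18, adjusted p = 0.000383) and Krt5 (1.82 ± 0.30, adjusted p = 0.00301), and 2 of 8 in NIC-Prmt6, which both ended on averaging. In NIC-Carm1 0 of 8 basal genes passed in limma and edgeR and 1 in DESeq2, with 4 at an unadjusted p of 0.05. Endothelial and fibroblast genes gave 0 of 7 each in NIC-Carm1 in limma and edgeR, 1 each in DESeq2, and 2 and 1 at an unadjusted p of 0.05. Of 10 luminal genes, 2 rose and 3 fell in NIC-Prmt1 and 5 fell in NIC-Carm1. With the nearly identical libraries averaged, 1 rose and 2 fell in NIC-Prmt1 and none passed in NIC-Carm1. Fabp4, an adipocyte fatty acid carrier that endothelium and macrophages also make, rose in NIC-Prmt1 and NIC-Prmt6 (1.44 ± 0.17 and 1.92 ± 0.19, adjusted p = 0.000854 and 0.000146), and Lep fell in NIC-Carm1 (-2.08 ± 0.60, adjusted p = 0.043), a call that ended without either NIC library. In limma no other of the 6 adipocyte genes passed in the comparisons with NIC, while edgeR called 2 and DESeq2 called 3 higher in NIC-Prmt6. The summed level of the skin keratinocyte list was 798 CPM in NIC-Prmt1 replicate 1, 90.2 CPM in NIC-Prmt1 replicate 3 and at most 4.38 CPM in the other 8 libraries. NIC-Prmt1 replicate 1 is the library with the lowest value of 7 of the 10 general macrophage genes, and the part of skin RNA in that was not tested. The basal list ranked these libraries alike, with 4296 CPM for replicate 1, 3336 CPM for replicate 3 and 2369 CPM for replicate 2. Replicate 2, where the skin list was at 4.13 CPM, still had more basal RNA than either NIC library (979 and 1159 CPM). How far skin RNA adds to the basal rise in NIC-Prmt1 was not tested either.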
